A study of Mus musculus with 4 samples.

Results

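Metallothioneins are small cysteine-rich proteins that bind zinc and copper, and 4 of the 31053 genes counted in these libraries were followed here: the metallothionein genes Mt1, Mt2 and Mt3, and Mtf1, which encodes the zinc-sensing transcription factor that acts on metallothionein genes. They were taken by symbol and by no cut on a measured value, but earlier results of these data were known when they were chosen. Their level was followed over the cell classes of brain vascular-associated cell preparations. The study used male wild-type C57BL/6 mice of 12 to 14 weeks. In the defeat condition (CSD, chronic social defeat) a mouse lived for 14 days beside an aggressive CD-1 mouse behind a partition that was lifted daily for short attacks. Home cage (HC) mice also lived beside a CD-1 mouse for the same time, with a partition that was never lifted. Blood vessels and their associated cells were captured with magnetic beads carrying an antibody to CD31, released with collagenase at 37 °C and sequenced with 10x Genomics 3′ v3.1 chemistry. Each library pooled 4 mice and each group had 2 libraries, named CSD 1, CSD 2, HC 1 and HC 2, so that the spread given below is that between pools and not between mice.

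Mt1 and Mt2 are expressed in most tissues and are known to be induced by zinc, by glucocorticoids and by oxidative stress. Zinc acts through Mtf1, which binds short metal response elements in their promoters. Mt3 is the brain-enriched member, known from astrocytes and neurons, and is less responsive to metals. In the brain, Mt1 and Mt2 are chiefly known as glial genes.

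The 3 metallothionein genes lie in a cluster on chromosome 8, and all are protein-coding genes of 3 exons on the plus strand. On GRCm38, Mt3 (ENSMUSG00000031760) spans chr8:94152607-94154146, Mt2 (ENSMUSG00000031762) spans chr8:94172664-94173568 and Mt1 (ENSMUSG00000031765) spans chr8:94179082-94180327. Only 5513 bases separate the end of Mt2 from the start of Mt1, against 18517 bases between Mt3 and Mt2. Mtf1 (ENSMUSG00000028890), with 12 exons, lies on chromosome 4 at chr4:124802104-124849800, also on the plus strand. The 250 bases before each start site in the RefSeq annotation (GRCm38.p6) are printed 5′ to 3′ on the plus strand, because the element that Mtf1 binds can be looked for in them. Capitals mark matches on either strand to the core of that element, searched as TGCACNC or TGCGCNC.
Mt1, chr8:94178839-94179088: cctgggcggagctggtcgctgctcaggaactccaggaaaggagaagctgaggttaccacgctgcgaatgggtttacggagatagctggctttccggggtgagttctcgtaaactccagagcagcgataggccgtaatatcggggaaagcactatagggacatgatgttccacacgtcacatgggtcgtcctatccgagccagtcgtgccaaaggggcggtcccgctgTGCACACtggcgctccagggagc
Mt2, chr8:94172368-94172617: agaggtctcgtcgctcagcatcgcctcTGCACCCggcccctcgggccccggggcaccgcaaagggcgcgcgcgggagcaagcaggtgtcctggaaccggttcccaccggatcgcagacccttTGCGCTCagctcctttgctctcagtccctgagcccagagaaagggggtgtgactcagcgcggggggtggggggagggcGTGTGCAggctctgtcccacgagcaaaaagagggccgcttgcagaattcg
Mt3, chr8:94152357-94152606: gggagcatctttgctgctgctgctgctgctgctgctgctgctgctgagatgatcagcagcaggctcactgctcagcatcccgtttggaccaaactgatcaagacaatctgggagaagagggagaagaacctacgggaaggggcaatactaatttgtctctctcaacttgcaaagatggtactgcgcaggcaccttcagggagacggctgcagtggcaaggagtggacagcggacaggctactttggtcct
Mtf1, chr4:124802299-124802548: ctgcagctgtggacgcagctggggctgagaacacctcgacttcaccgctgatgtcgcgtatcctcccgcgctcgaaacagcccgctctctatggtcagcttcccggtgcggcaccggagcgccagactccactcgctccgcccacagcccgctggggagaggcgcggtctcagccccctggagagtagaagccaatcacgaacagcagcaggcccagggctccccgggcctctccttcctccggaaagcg

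The Mt2 window held 3 matches, at 223, 128 and 50 bases before the start, and the Mt1 window held 1, at 23 bases before it. No match to these letters was found in the Mt3 and Mtf1 windows. Among 32851 RefSeq promoters of the same length, 21.4% held at least 1 match and 1.26% held at least 3, so that a match is common and 3 in a window are not. The Mt2 window also held 1 match to TGACNNNGC, the core of the antioxidant response element, which was present in 10.2% of promoters and did not overlap the marked matches. The GENCODE annotation, another than RefSeq, gives 3 transcript models of Mt1 that start up to 159 bases apart. The stretch between the outermost starts held 4 further matches, each shown with its flanks. Only 0.125% of promoters (41) held as many in the last 159 bases before their start. The 4 Mt1 matches lie past the RefSeq start used above, so the stretches compared are not of the same kind. These matches are descriptions of sequence, and binding of Mtf1 was not measured.
Mt1 TGCACNC site, plus strand, chr8:94179091-94179097: gggagctcTGCACTCcgcccgaa
Mt1 TGCGCNC site, plus strand, chr8:94179109-94179115: ccgaaaagTGCGCTCggctctgc
Mt1 TGCACNC site, minus strand, chr8:94179173-94179179: cgcctgctGGGTGCAaacccttt
Mt1 TGCGCNC site, plus strand, chr8:94179187-94179193: aaacccttTGCGCCCggactcgt

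A UMI (unique molecular identifier) marks 1 captured mRNA molecule, and the level of a gene is given as CPM, its UMIs divided by all UMIs of the class in a library and multiplied by 1000000. Since 3′ libraries count 1 tag per molecule irrespective of transcript length, CPM values of different genes were compared directly. Of 14415 barcodes kept as cells, 11896 were placed in 15 classes by marker genes that do not include the 4 members, and 8 classes besides endothelial cells (EC) had at least 10 cells in every library. Capillary and arterial EC were also set apart within EC, which gives 11 classes, with 4759 cells in EC. Markers of a class were among its 10 leading genes by fold in all 15 classes, from 2 in fibroblasts to 8 in pericytes. Since cells were placed by these markers, this is no independent check of the classes. The astrocyte class was led by Gria2, Fabp7, Bcan, Dclk1 and Npy, and of these only Bcan was among its markers. Of 345 cells in it, 24 held an Npy UMI and 80 a Fabp7 UMI, and whether it holds cells of another kind was not tested beyond leaving out the cells with an Npy UMI, whose effect is given with the levels. Total UMIs per library ranged from 27297599 to 30361474 and the median per cell from 1408 to 2357. CSD 2 stood apart from the others: 32.6% of its UMIs lay in cells, against 51.8% to 56.8% in the other libraries, and its median share of mitochondrial UMIs was 8.16%, against 6.13% to 7.02%. Any 2 libraries shared between 0 and 9 cell barcodes.

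Free RNA in the suspension also carried the members, as measured in barcodes with at most 100 UMIs. Mt1 was at 1137 CPM there in CSD 1, 2375 in CSD 2, 1243 in HC 1 and 1547 in HC 2. CSD 2 was the highest, while CSD 1 lay below both HC libraries. Mt3 in free RNA was at 1178, 1494, 1389 and 1799 CPM in the same order of libraries, Mt2 at 179 to 293 CPM and Mtf1 at 14.1 to 18.6 CPM. Scaled by Ttr, a gene of choroid plexus cells that other classes should lack, free RNA accounted for an estimated 7.31% to 16.2% of Mt1 in EC, 0.263% to 0.470% in ependymal cells and 1.88% to 6.09% in astrocytes. For Mt3 the estimates were 47.6% to 69.3% in EC and 46.6% to 75.4% in microglia, against 0.404% to 0.758% in ependymal cells. 

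Mt1 was highest in ependymal cells, the ciliated cells that line the ventricles, and astrocytes came next. In ependymal cells Mt1 was at 5491 CPM in CSD 1, 8914 in CSD 2, 7333 in HC 1 and 7310 in HC 2 (mean 7262 ± 1399, SD, n = 4 libraries). In astrocytes it was at 2713, 4704, 2700 and 3350 CPM (3367 ± 942), below the lowest ependymal library in every case. Without the cells that held an Npy UMI, a choice made after seeing the data, astrocytes held Mt1 at 2798, 4804, 2754 and 3419 CPM. Fibroblasts (1305 ± 521), EC (826 ± 226) and arterial smooth muscle cells (791 ± 368) followed. All 4 fibroblast libraries lay below those of astrocytes, whereas fibroblasts, EC, smooth muscle cells, microglia (444 ± 120), pericytes (368 ± 120) and choroid plexus cells (224 ± 24.4) overlapped with their neighbours in this order. T cells were lowest, at 17.9 to 128 CPM, with every library below those of choroid plexus cells. In choroid plexus cells Ttr alone stood at 315179 to 327204 CPM. This lowers the CPM of every other gene there, the members included, relative to other classes.

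**Figure D1:**
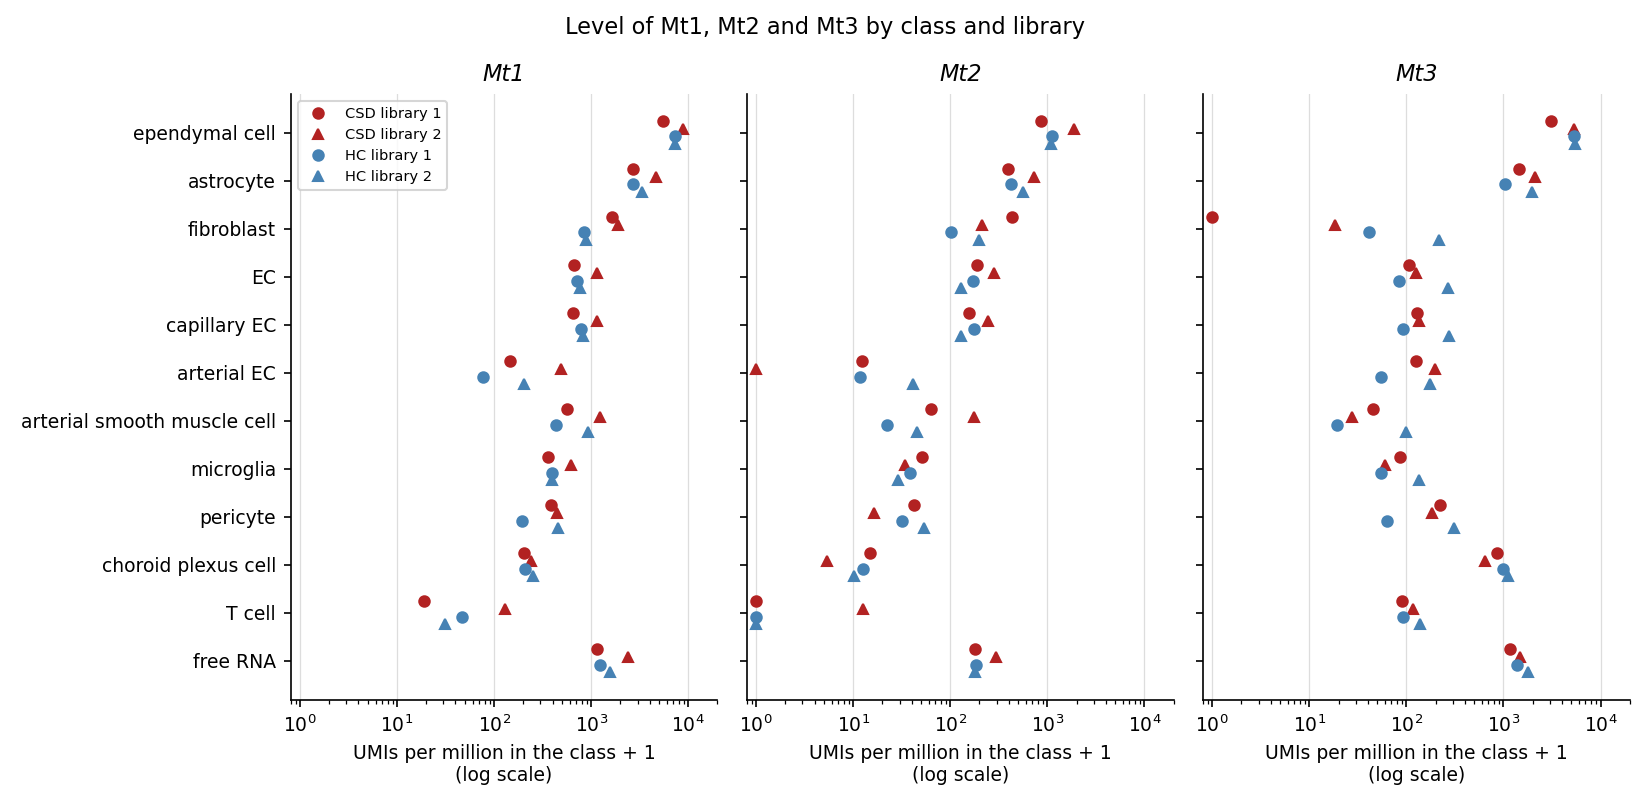
Level of Mt1, Mt2 and Mt3 in 11 cell classes and in free RNA (barcodes with at most 100 UMIs), as CPM plus 1 on a log axis. Each point is 1 library, red for CSD and blue for HC, with circles for library 1 and triangles for library 2. The 4 ependymal libraries lie above all others for Mt1, Mt2 and Mt3, and choroid plexus cells are high for Mt3 only.

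Mt2 followed Mt1 in order at a lower level. It was at 859, 1891, 1129 and 1099 CPM in ependymal cells of CSD 1, CSD 2, HC 1 and HC 2, and at 392, 726, 423 and 562 CPM in astrocytes. The ependymal and astrocyte libraries did not overlap. In EC the level of Mt2 was 192 ± 65.4 CPM, in microglia 37.1 ± 9.54 and in choroid plexus cells 9.75 ± 4.09. In T cells Mt2 was at 0 in 3 libraries, and CSD 2 held the only UMI (11.7 CPM).

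Mt3 had another order. Ependymal cells again led, with 3103, 5345, 5341 and 5507 CPM in CSD 1, CSD 2, HC 1 and HC 2, and astrocytes followed with 1442, 2112, 1041 and 1950 CPM. Choroid plexus cells, the epithelium that makes cerebrospinal fluid, came next in mean level with 860, 646, 981 and 1124 CPM. Their range overlapped that of astrocytes and lay above that of pericytes (192 ± 102), the next class. EC (145 ± 81.8), T cells (108 ± 22.5), microglia (83.1 ± 37.1), fibroblasts (68.4 ± 99.7) and smooth muscle cells (46.6 ± 35.3) overlapped from one to the next, and in fibroblasts of CSD 1 no Mt3 UMI was counted. HC 2 was the highest library for Mt3 in 9 of 11 classes, as it was in free RNA, and for Mt1 CSD 2 was the highest in 9 of 11, as it was in free RNA.

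Mtf1 was low in EC and the other 8 classes, with mean levels from 10.2 to 28.8 CPM. EC held 32.6, 22.8, 19.7 and 29.3 CPM in CSD 1, CSD 2, HC 1 and HC 2, and microglia 16.1, 18.1, 20.8 and 17.4 CPM. No neighbours in its order were apart, and in T cells, pericytes, fibroblasts and astrocytes at least 1 library held no Mtf1 UMI.

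The share of cells with at least 1 UMI depends on depth, so each cell was thinned to 500 UMIs. Mt1 was then found in 92.1% ± 6.91 of ependymal cells, 60.3% ± 10.2 of astrocytes and 28.4% ± 4.8 of EC (SD over 4 libraries). T cells, the class with the lowest levels of Mt1 and Mt2, gave 4.79% ± 3.89 for Mt1 and 5.97% ± 1.26 for Mt3. They serve as a low reference and not as a class known to lack these genes. Free RNA made up an estimated 28.7% to 248% of their Mt1 and 19.9% to 53.4% of their Mt3. The only Mt2 UMI of the 112 T cells was lost in thinning, so the thinned Mt2 share of T cells says nothing beyond that count. The share with an Mt3 UMI was 8.24% ± 3.69 in EC, from 4.27% in HC 1 to 13.2% in HC 2, and overlapped the 4.76% to 7.14% of T cells. In microglia it was 5.17% ± 1.77 and also overlapped that of T cells, so that neither class stood apart from T cells over its libraries. Mt3 was found in 86.4% ± 9.88 of ependymal cells, 45.7% ± 6.85 of astrocytes and 39.4% ± 4.66 of choroid plexus cells. Ttr takes up a large part of the 500 UMIs in choroid plexus cells, which lowers their shares for other genes. Mean depth before thinning was 1050 to 2052 UMIs per EC, 1537 to 4078 per T cell and 6412 to 13004 per choroid plexus cell, and without thinning 50.9% of EC held an Mt1 UMI and 82.9% of choroid plexus cells an Mt3 UMI.

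**Figure D2:**
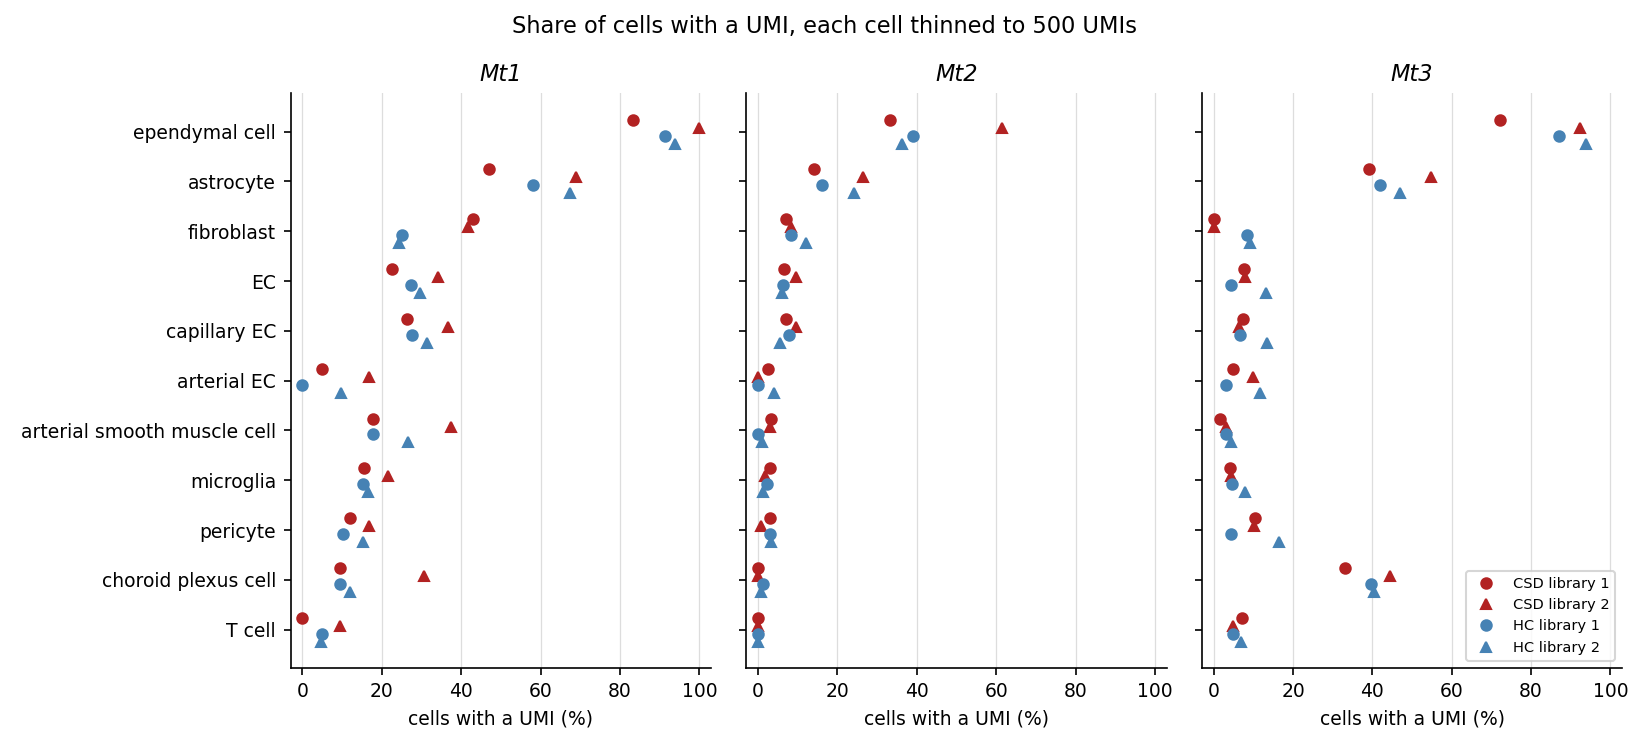
Share of cells (percent) with at least 1 UMI of Mt1, Mt2 and Mt3 after thinning every cell to 500 UMIs, by class and library (colours and symbols for group and library). Ependymal cells, with a mean of 92.1% for Mt1 and 86.4% for Mt3, stand above astrocytes, and T cells stay near the bottom for all 3 genes.

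Mt1 and Mt2 UMIs met in the same EC at shares of 2.82% in CSD 1, 4.76% in CSD 2, 2.02% in HC 1 and 2.47% in HC 2 after thinning. The product of the separate shares was 1.46%, 3.25%, 1.69% and 1.76%. The share with both was above the product in 4 of 4 libraries, and so it was in capillary EC. In microglia it was above the product in CSD 1 and HC 2 and below it in CSD 2 and HC 1. Mixing cells of unlike level in a class also raises the share with both, and its part was not tested. EC held 42.1% to 54.3% of all Mt2 UMIs in classed cells, against 18.1% to 32.8% of the UMIs of all genes. Choroid plexus cells held 72.6%, 9.4%, 62.2% and 76.5% of all Mt3 UMIs in CSD 1, CSD 2, HC 1 and HC 2. Their shares of the UMIs of all genes were 31.7%, 3.67%, 25.4% and 48.8%. The low shares in CSD 2 went with 36 choroid plexus cells there, against 169 to 561 in the other libraries.

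The balance of the 3 genes differed from class to class. In choroid plexus cells the ratio of Mt3 to Mt1 was 4.24, 2.71, 4.79 and 4.46 in the 4 libraries, so that Mt3 was the leading metallothionein there in every library. The ratio was below 1 in every library of ependymal cells (0.662 ± 0.0932), astrocytes (0.487 ± 0.0871), EC (0.182 ± 0.109) and arterial smooth muscle cells (0.062 ± 0.0373). The ratio of Mt2 to Mt1 was 0.233 ± 0.0491 in EC, 0.168 ± 0.0294 in ependymal cells, 0.156 ± 0.00963 in astrocytes, 0.0891 ± 0.0374 in microglia and 0.0449 ± 0.0222 in choroid plexus cells. Free RNA had 0.986 ± 0.244 Mt3 UMIs and 0.136 ± 0.0192 Mt2 UMIs per Mt1 UMI. Mt2 thus stayed below Mt1 in every library of these 5 classes.

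**Figure D3:**
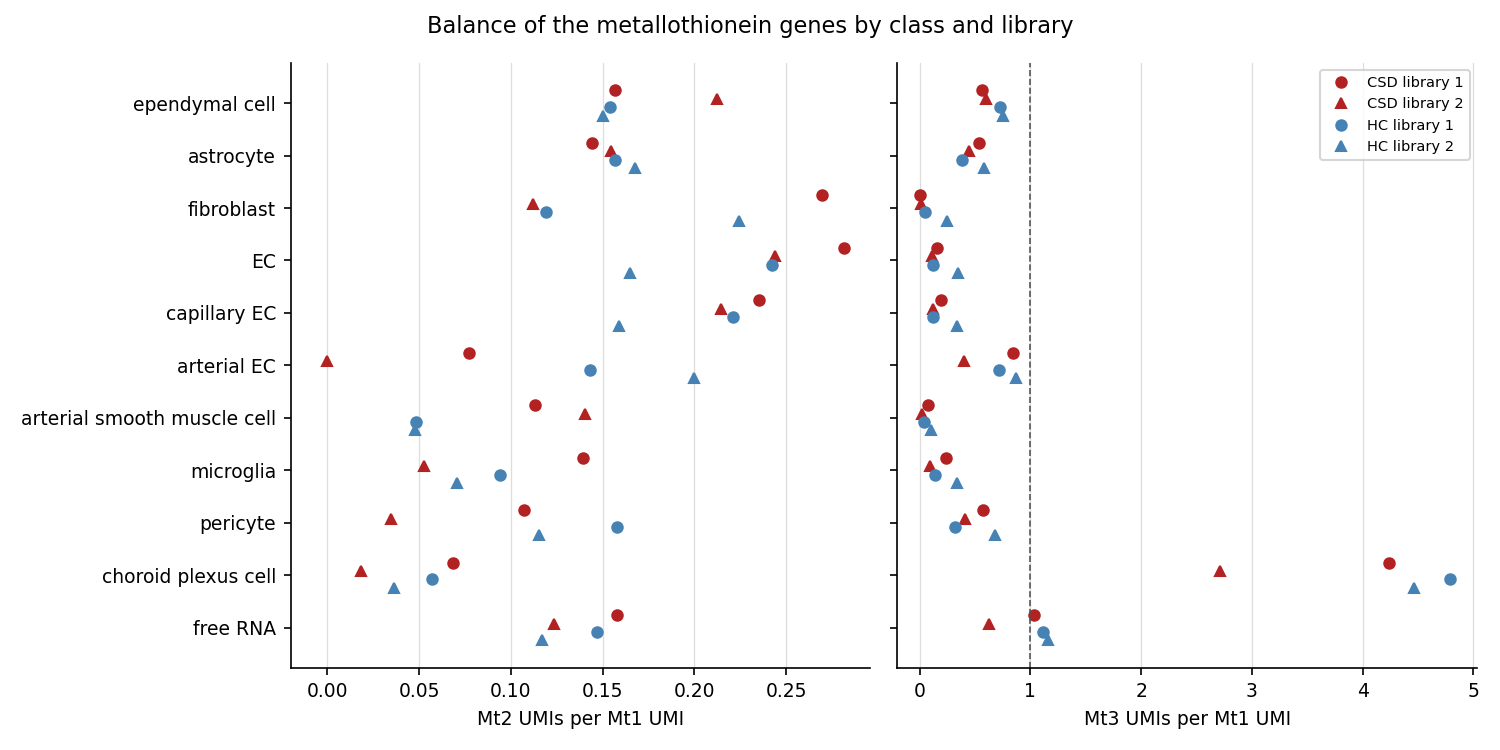
Ratio of Mt2 to Mt1 and of Mt3 to Mt1 by class (T cells left out) and in free RNA, 1 point per library, with a dashed line at a ratio of 1. Choroid plexus cells lie above the line for Mt3, between 2.71 and 4.79, and every library of the other classes shown lies below it, while free RNA lies on both sides.

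Each class was then set against EC, the class that the capture aimed at, with the library as a block. Of 32 pairs of a member and a class, 20 passed edgeR's quasi-likelihood test at a Benjamini-Hochberg adjusted p of 0.05, 8 higher than in EC and 12 lower. Classes differ widely, and the test called 65% of all genes for microglia, 33.3% for T cells, 33.7% for pericytes, 50.1% for smooth muscle cells, 21.1% for fibroblasts, 74.5% for choroid plexus cells, 48.8% for ependymal cells and 44.8% for astrocytes. By direction, it called 35.3% of genes as higher in choroid plexus cells, 19.8% in ependymal cells and 18.7% in astrocytes, and 32.1% as lower in microglia, 24% in T cells, 20.2% in pericytes, 26.8% in smooth muscle cells, 13.4% in fibroblasts and 39.2% in choroid plexus cells. A call by itself is therefore common, and sizes are given. The median log2 difference over all genes lay between -0.59 (T cells) and -0.02 (microglia).

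Mt1 was 7.22-fold higher in ependymal cells than in EC (log2 2.85 ± 0.18, SE, adjusted p = 2.6e-53) and 3.68-fold higher in astrocytes (1.88 ± 0.21, adjusted p = 2.6e-17). It was lower than in EC in microglia (-0.58 ± 0.17, adjusted p = 0.00746, and not called without CSD 1, where it was -0.53 with an adjusted p of 0.0548), choroid plexus cells (-1.02 ± 0.12), pericytes (-1.30 ± 0.18) and T cells (-3.81 ± 0.30), where the fold was 14.0. In T cells the difference was -4.52 without CSD 2 and -4.63 with free RNA subtracted. Without the cells that held an Npy UMI, astrocytes lay above EC by 1.83 for Mt1, 1.25 for Mt2 and 3.49 for Mt3, all called. The differences of Mt1 pointed the same way in all 4 libraries in each of these 6 classes. Smooth muscle cells (0.13, adjusted p = 0.431) and fibroblasts (0.32, adjusted p = 0.364) did not pass the test.

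Mt2 was 5.30-fold higher in ependymal cells and 2.50-fold higher in astrocytes than in EC. In 5 classes it was lower: 2.33-fold in smooth muscle cells, 4.11-fold in microglia (log2 -2.04 ± 0.18, adjusted p = 8.6e-08), 6.27-fold in pericytes, 8.49-fold in choroid plexus cells (-3.09 ± 0.15, adjusted p = 1.7e-22), and by -5.71 on the log2 scale in T cells, where 3 libraries held no UMI and the size depends on the prior count. Free RNA made up an estimated 30.3% to 109% of Mt2 in pericytes. Their difference of -2.65 was -1.93 without CSD 2, -3.35 without HC 2 and -3.47 with free RNA subtracted, and was called each time. In the 4 of these classes with Mt2 UMIs in every library, the log2 difference from EC was lower for Mt2 than for Mt1. In smooth muscle cells, 1 of these 4, Mt1 itself was not below EC (0.13, not called). The difference between the genes was not tested. Fibroblasts did not pass the test (-0.04).

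Mt3 was 28.9-fold higher in ependymal cells, 11.6-fold higher in choroid plexus cells (log2 3.53 ± 0.15, adjusted p = 8.2e-25) and 10.9-fold higher in astrocytes than in EC. Choroid plexus cells were thus above EC in Mt3 and below EC in Mt1 and Mt2, in 4 of 4 libraries for each gene. Smooth muscle cells (-1.38), fibroblasts (-1.53) and microglia (-0.45, adjusted p = 0.0152) were lower in Mt3, and T cells (-0.37) and pericytes (0.27) did not pass the test. The fibroblast difference was called neither without CSD 1 (-1.20, adjusted p = 0.0617) nor with free RNA subtracted (-1.49, adjusted p = 0.0526), and it was -2.72 without HC 2. The microglia difference was called neither without HC 2 (-0.40, adjusted p = 0.0740) nor in cells of at least 1000 UMIs (-0.29, adjusted p = 0.106). Because of the share of free RNA in the Mt3 of EC, subtracting it raised the ependymal difference to 6.01 and the astrocyte difference to 4.54 on the log2 scale. Mtf1 passed in 1 of 8 classes, choroid plexus cells (0.41, adjusted p = 0.0487), and this call was lost without any 1 of the 4 libraries and turned to -0.38 without TMM scaling, the step that sets library sizes from the bulk of genes.

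Within EC, arterial cells, the EC of the vessels that feed the capillary bed, held less Mt1 and Mt2 than capillary cells. Mt1 was at 655, 1138, 790 and 813 CPM in capillary EC of CSD 1, CSD 2, HC 1 and HC 2, and at 146, 489, 75.1 and 201 CPM in arterial EC. Mt2 was at 154, 244, 175 and 129 CPM in capillary EC and at 11.3, 0, 10.7 and 40.2 CPM in arterial EC. These arterial values rest on only 1, 0, 1 and 3 Mt2 UMIs in CSD 1, CSD 2, HC 1 and HC 2. No arterial library reached the lowest capillary library for either gene.

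This comparison was chosen after the levels had been seen. Mt1 was lower in arterial EC by a log2 difference of -2.06 ± 0.16 (edgeR's quasi-likelihood test, adjusted p = 1.7e-34) and Mt2 by -3.48 ± 0.42 (adjusted p = 1.4e-14), both in 4 of 4 libraries. The test called 9.47% of all genes in either direction and 5.04% as lower, with a median difference of -0.09. Arterial cells were the deeper ones, with 1463 to 2824 UMIs per cell on average against 991 to 1691 in capillary cells, and there were 30 to 51 of them in a library against 639 to 1343. Mt3 (-0.27, adjusted p = 0.622) and Mtf1 (-0.37, adjusted p = 0.834) did not pass the test. Leaving out 1 library at a time gave -2.48 to -1.75 for Mt1 and -4.50 to -3.0 for Mt2. The 95% intervals of the fit were -2.38 to -1.75 for Mt1 and -4.31 to -2.66 for Mt2. The lowest value without 1 library lay outside each interval, so the SE and adjusted p do not fully cover the spread between libraries. With so few arterial Mt2 UMIs, and none in CSD 2, the size of the Mt2 difference depends on the prior count. Free RNA made up an estimated 19.3% to 41.9% of the Mt1 in arterial EC. For Mt2 the estimate was 24.1% to 61.0% in the 3 libraries with an Mt2 UMI. With free RNA subtracted the differences were -2.45 for Mt1 and -4.16 for Mt2.

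**Figure D4:**
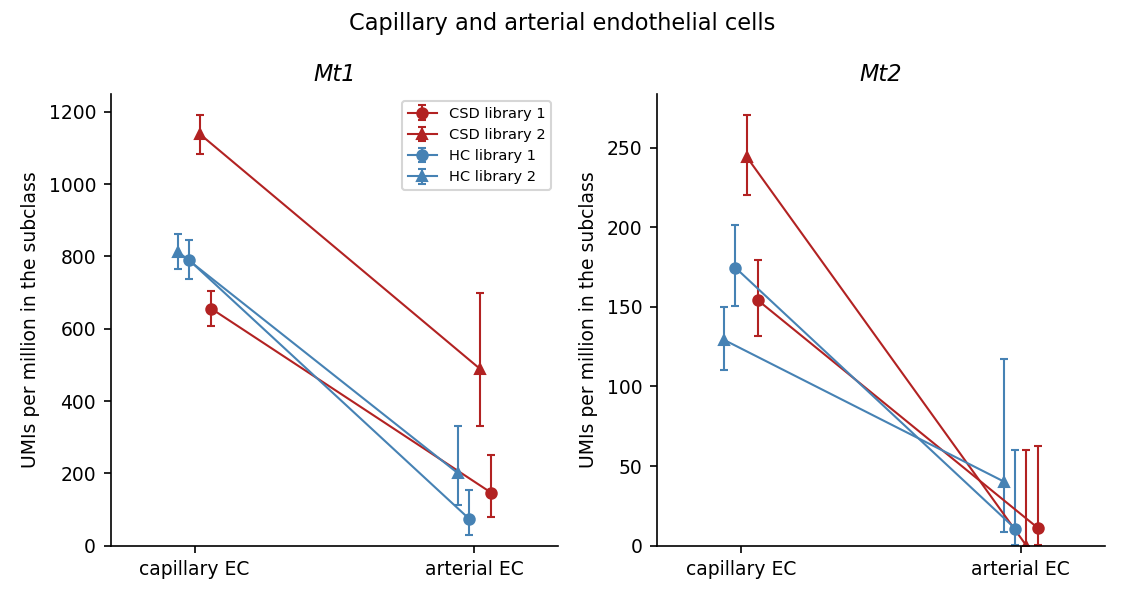
Level of Mt1 and Mt2 (CPM) in capillary and arterial EC, with a line joining both classes of a library and bars for the exact Poisson 95% interval, which covers counting error only. Mt1 falls from capillary to arterial EC in all 4 libraries, to between 75.1 and 489 CPM, and Mt2 to between 0 and 40.2 CPM.

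The question the study design puts to these genes is whether they differ after CSD. No member passed the test between CSD and HC in any class: 0 of 31 pairs of a member and a class by edgeR's quasi-likelihood test and 0 by DESeq2. An unadjusted p under 0.05 was reached by 5 pairs, 4 of them higher in CSD. Over all genes it was reached by 832 of 9807 in EC, 816 of 9010 in capillary EC and 110 of 1494 in arterial EC. The count was 133 of 9938 in microglia, 138 of 2521 in pericytes, 121 of 4204 in smooth muscle cells and 79 of 842 in fibroblasts. It was 280 of 8976 in choroid plexus cells, 59 of 1566 in ependymal cells and 49 of 1382 in astrocytes. The smallest adjusted p was 0.417. Over all genes the test called 0.0714% in EC, 0.477% in capillary EC, 0.0669% in arterial EC, 0.0397% in pericytes, 0.0557% in choroid plexus cells, 0.362% in astrocytes, and 0% in microglia, smooth muscle cells, fibroblasts and ependymal cells. With 2 libraries a group, an exact permutation test of a single value cannot go below p = 0.33. TMM-scaled CPM, where so named, are on the scale of the test and differ somewhat from CPM.

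In EC, Mt2 was at 196 and 287 TMM-scaled CPM in CSD 1 and CSD 2 and at 172 and 125 in HC 1 and HC 2. Both CSD libraries lay above both HC libraries, as they did for 20.1% of all genes tested in EC, and the log2 difference was 0.71 ± 0.23 (95% interval 0.18 to 1.23, unadjusted p = 0.0142 by edgeR's quasi-likelihood test, adjusted p = 0.417). Mt1 in EC was at 695 and 1176 TMM-scaled CPM in CSD and at 709 and 757 in HC. Here CSD 1 lay below both HC libraries, and the difference was 0.35 ± 0.24 (adjusted p = 0.727). Without CSD 1 the difference was 0.69 for Mt1 and 0.96 for Mt2, and without CSD 2 it was -0.071 for Mt1 and 0.41 for Mt2. In capillary EC the differences were 0.20 for Mt1 and 0.44 for Mt2 (adjusted p = 0.845 and 0.555, edgeR's quasi-likelihood test). Without 1 library they ranged from -0.23 to 0.54 for Mt1 and from 0.086 to 0.73 for Mt2.

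The 4 remaining pairs at an unadjusted p under 0.05, among them Mt1 in arterial EC, a part of EC, were these. Mt2 in arterial smooth muscle cells, at 62.9 and 175 CPM in CSD and 21.1 and 44.5 CPM in HC, differed by 1.81 ± 0.51 (unadjusted p = 0.00323, adjusted p = 0.999, edgeR's quasi-likelihood test), with CSD above HC, as for 14.9% of genes. Without CSD 1 it was 2.46 and without CSD 2 it was 1.01. With no filter on low counts it was called at 1.81 (adjusted p = 0.0188), with 3 of 13329 genes called. Mt1 in fibroblasts was at 1620 and 1874 CPM in CSD and 846 and 882 in HC, again without overlap, as for 19.4% of genes. It differed by 1.12 ± 0.39 (unadjusted p = 0.0235, adjusted p = 0.461, edgeR's quasi-likelihood test), and by 0.81 to 1.27 without 1 library. The fibroblast and smooth muscle values rest on 12 to 33 fibroblasts and 32 to 123 smooth muscle cells in a library. Mt1 in arterial EC differed by 1.15 ± 0.50 (unadjusted p = 0.0263, adjusted p = 0.485), with overlapping groups. It was 0.15 without CSD 2, 0.58 without HC 1, 1.98 without HC 2 and 1.88 without CSD 1. Mt3 in choroid plexus cells was lower in CSD (-0.48 ± 0.19, 95% interval -0.87 to -0.08, unadjusted p = 0.0198, adjusted p = 1.0), with both CSD libraries below both HC libraries, as for 17.2% of genes.

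By gene, the fitted difference was above 0 in 8 of 10 classes for Mt1, 8 of 8 for Mt2, 2 of 9 for Mt3 and 3 of 4 for Mtf1, and EC, capillary EC and arterial EC share cells in these counts. The median was 0.34 for Mt1, 0.41 for Mt2, -0.38 for Mt3 and 0.21 for Mtf1, while the median over all genes lay between -0.01 and 0.03 in the classes where members were tested. For Mt2 in choroid plexus cells the fitted difference was 0.31 although the mean level was lower in CSD (9.02 against 10.5 TMM-scaled CPM), and CSD 2 held 1 Mt2 UMI there. On the TMM scale, groups did not overlap in 1 class for Mt1, in 3 for Mt2 (EC, smooth muscle cells and fibroblasts), each with CSD above HC, and in 2 for Mt3 (choroid plexus and ependymal cells), both with CSD below HC. In ependymal cells this held only on that scale (4327 and 7414 TMM-scaled CPM in CSD, 7608 and 7607 in HC), since in plain CPM the 5345 of CSD 2 lay above the 5341 of HC 1. For Mtf1 it was choroid plexus cells, with CSD above HC. Such separations occurred for 13.5% (above) and 17.2% (below) of all genes in choroid plexus cells and for 14.8% (below) in ependymal cells. Without CSD 2, the difference of Mt1 turned negative in EC (-0.071), capillary EC (-0.23), microglia (-0.18), smooth muscle cells (-0.28) and astrocytes (-0.086). The highest Mt1 of free RNA was in that same library, and the part of free RNA or of tissue handling in its levels was not tested. Subtraction of free RNA gave 0 calls, as did the main fit, so that count says nothing on this part. Free RNA made up an estimated 8.17% of Mt1 in EC of CSD 2, against 8.71% in CSD 1, 7.31% in HC 1 and 16.2% in HC 2.

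**Figure D5:**
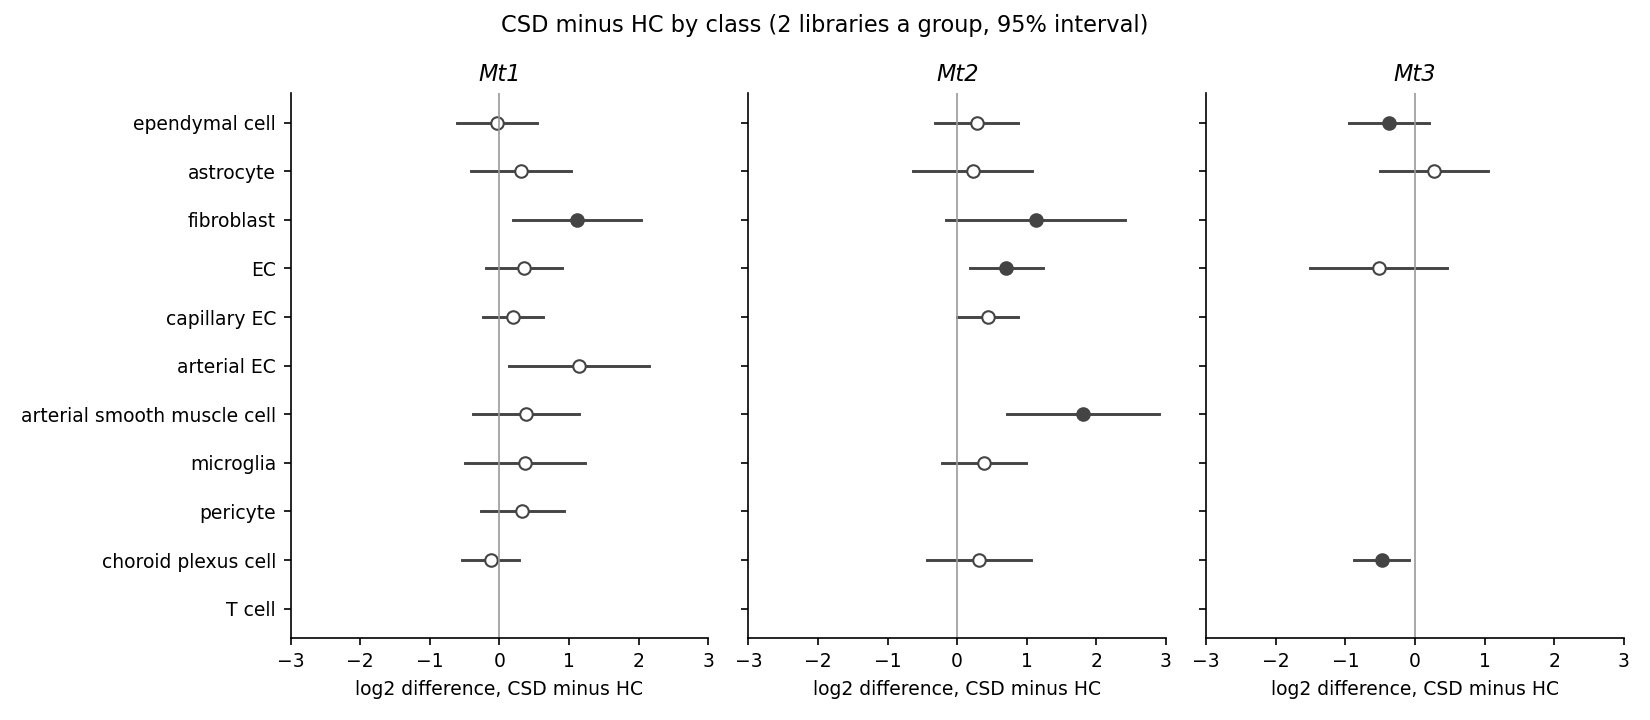
Log2 difference CSD minus HC with its 95% interval for Mt1, Mt2 and Mt3 by class, from edgeR's quasi-likelihood fit (2 libraries a group). Filled points mark pairs whose CSD libraries both lay on the same side of both HC libraries on the TMM scale. Mt3 is shown in EC, choroid plexus cells, ependymal cells and astrocytes, and no point passed an adjusted p of 0.05.

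An interaction term of class and group tested whether a member answered to CSD differently in EC and in another class. Of 32 pairs, 0 were called by edgeR's quasi-likelihood test, 5 had an unadjusted p under 0.05, and the smallest adjusted p was 0.959. Over all genes, an unadjusted p under 0.05 was reached by 358 of 11221 for microglia, 217 of 9462 for T cells and 364 of 9790 for pericytes. The count was 424 of 9754 for smooth muscle cells and 353 of 9717 for fibroblasts. It was 537 of 10864 for choroid plexus cells, 381 of 10224 for ependymal cells and 445 of 10618 for astrocytes. Of all genes, this test called 0% for microglia and T cells, 0.0613% for pericytes, 0.0308% for smooth muscle cells, 0.247% for fibroblasts, 0.184% for choroid plexus cells, 0.00978% for ependymal cells and 0.0942% for astrocytes.

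Genes that handle the same metals, or answer the same signals, were taken from 6 lists with 98 genes. Among zinc transporters 0 genes were called in any class, with 15 of 24 tested in EC and a median log2 difference of 0.25 there, against -0.00 for all genes. The list holds Slc30a1, the zinc exporter that is itself an Mtf1 target. It was at 330 and 531 TMM-scaled CPM in EC of CSD mice and at 263 and 300 in HC mice. CSD lay above HC without overlap, as for 20.1% of all genes tested in EC. Its difference of 0.62 ± 0.23 did not pass edgeR's quasi-likelihood test (adjusted p = 0.510). Copper handling genes (11 tested in EC, median 0.01) and genes of the oxidative and metal stress response (15 tested, median -0.02) also had 0 calls in any class. Of the latter, the values in EC were -0.02 for Gclm, a subunit of the glutathione-making enzyme, and -0.26 for Hmox1, heme oxygenase.

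Calls came from other lists, 7 in all, where the test called 0.0714% of all genes in EC and 0.477% in capillary EC. Each had CSD above HC in both libraries, and DESeq2 called 0 of them. In EC they were Lcn2, which encodes an iron-siderophore binding protein of acute inflammation (75.0 and 116 TMM-scaled CPM in CSD, 2.73 and 1.68 in HC, difference 5.39, adjusted p = 0.00341 by edgeR's quasi-likelihood test), and Cdkn1a, a cell cycle inhibitor on the glucocorticoid list (627 and 746 in CSD, 226 and 256 in HC, difference 1.51, adjusted p = 0.0324). In capillary EC, most of the same cells, they were Cdkn1a (1.46), Ddit4 (0.97) and Nfkbia (0.82) of the glucocorticoid list, and Hspa1a (1.07) and Fosb (0.81) of the list of immediate-early and dissociation genes. Hspa1a has a near-identical copy, Hspa1b, so its count is uncertain. The median of the glucocorticoid list was 0.76 in EC (14 tested, 1 called), against -0.00 for all genes. That of the immediate-early and dissociation list was 0.60 (18 tested, 0 called, 18 of 18 above 0, with the share of all genes above 0 not counted). The latter list also covers genes induced by enzymatic dissociation, and its part in the levels of Mt1 and Mt2 was not tested. Fkbp5 (1.54, adjusted p = 0.105) and Tsc22d3 (0.76, adjusted p = 0.133), textbook glucocorticoid targets, did not pass the test in EC. In microglia, where no listed gene passed, the differences were -0.36 for Slc30a1, -0.10 for Gclm, 0.51 for Hmox1, 1.67 for Fkbp5 and 0.59 for Tsc22d3, each with an adjusted p of 1.0.

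Over 44 points, 11 classes in 4 libraries, Mt2 was the gene whose level on the log2(CPM + 10) scale was most like that of Mt1 (Pearson r = 0.925), while r was 0.485 between Mt1 and Mt3 and 0.049 between Mt1 and Mtf1. Points from a library share its depth and free RNA, and EC share cells with their subclasses, so r is a description. Among 4332 other genes, those closest to Mt1 were Cpe (0.817), Arhgap21 (0.811), Mlc1 (0.807), S100b (0.796) and Itsn1 (0.792). Those closest to Mt2 were Gja1 (0.803), Gstm1 (0.793), S100b (0.790), Mlc1 (0.789) and Msi2 (0.780), and Gja1, a gap junction protein, and Mlc1, a membrane protein of astrocyte endfeet, were among the markers that defined astrocytes here. For Mt3 they were Kif21a (0.901), Acot1 (0.894), Wwc1 (0.883), Fam213a (0.875) and Dbi (0.870).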

How the data were processed

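Single-cell libraries of 4 pools of 4 mice were analysed. The authors deposited UMI counts, whole numbers per gene and barcode for all barcodes, made with Cell Ranger (version 4.0 and GRCm38, mm10 in the submitters' processing notes, 3.1.0 in the file headers), without cell calling or normalization. Barcodes with at least 500 UMIs, at least 250 genes and at most 25% mitochondrial UMIs were kept. A cell joined a class with at least 3 distinct markers detected, and at least 2 times as many as of any other class. EC subclasses needed 2. Droplets whose leading class had less than 2 times the markers of another were thereby left out. Those with fewer markers of another class stayed in, and no doublet caller was run. Counts were summed per library and class and tested, two-sided, with edgeR 4.0.16 (filterByExpr, TMM, glmQLFit, glmQLFTest) in R 4.3.3, with Benjamini-Hochberg adjustment over all genes of the class and a threshold of 0.05. DESeq2 1.42.0 was an alternative, as were other filters, gates and scalings, subtraction of free RNA, a replicate block and leaving out each library. Fits were tested on simulated data. Thinning used seed 1. Intervals of CPM are exact Poisson (95%) and cover counting error only. Those of log2 differences are 95% intervals from the quasi-likelihood fit. Their SE was taken as the absolute log2 difference divided by the square root of the F statistic. Where the difference is large or UMIs are few, they can be narrower than the spread between libraries. For Mt1 in T cells minus EC the interval was -4.39 to -3.23, and the value without CSD 2 was -4.52.

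The members, lists and classes were chosen with earlier results of these data known. Named genes were the 4 members, listed genes past the threshold (up to 5 a class), Slc30a1, Gclm, Hmox1, Fkbp5 and Tsc22d3 where none passed, and the 5 genes most alike to each metallothionein with a mean of at least 100 CPM in a class. For EC those 5 are also given, a choice made after their values were seen. Promoters came from RefSeq tables, and gene positions, exon counts and the Mt1 transcript models from GENCODE.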

Additional observations from a re-analysis of the deposited data

Results flagged for a closer look

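Mt1 in free RNA, a signal outside the counts of cells, stood at 2375 CPM in barcodes with at most 100 UMIs of CSD 2, above the level of both home cage libraries (1243 and 1547 CPM). The other defeat library, CSD 1, lay below them at 1137 CPM. Mt2 was highest in the same library (293 CPM against 179 to 182), whereas Mt3 was highest in HC 2 (1799 CPM) and Ttr was lowest in CSD 2 (23328 CPM against 105770 to 139969). No cause of this was tested.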

How the results depend on the processing

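Of 334 values under alternatives other than leaving out a library, 312 kept their direction and their side of the threshold, and so did 184 of 224 values without 1 library. The count of members called between CSD and HC was 1 without a filter on low counts (Mt2 in smooth muscle cells, 1.81, adjusted p = 0.0188 by edgeR's quasi-likelihood test). It also moved without CSD 1, CSD 2 or HC 1, where a group holds 1 library, so only the differences are given for these fits. Directions turned with at most 10% mitochondrial UMIs (choroid plexus cells, Mt1 0.21, Mtf1 -0.097), with free RNA subtracted (Mt3, arterial minus capillary EC 0.060 and T cells minus EC 0.0098, and Mt2, fibroblasts minus EC 0.015), with at least 1000 UMIs per cell (Mt3, T cells minus EC 0.15), and without TMM scaling (Mt1, smooth muscle cells minus EC -0.14, Mt2, fibroblasts minus EC 0.27, and Mtf1, choroid plexus cells minus EC -0.38). The scaling alternative between classes, leaving out astrocytes with an Npy UMI and the comparison of arterial with capillary EC were added after seeing the data. The causes were not tested.

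Without 1 library at a time, the CSD minus HC difference ranged in EC from -0.071 to 0.69 for Mt1, 0.41 to 0.97 for Mt2, -1.11 to 0.51 for Mt3 and -0.055 to 0.53 for Mtf1. For Mt1 it ranged from -0.23 to 0.54 in capillary EC, -0.18 to 0.76 in microglia, -0.13 to 1.19 in pericytes, -0.28 to 0.98 in smooth muscle cells, -0.27 to 0.090 in choroid plexus cells, -0.46 to 0.25 in ependymal cells and -0.086 to 0.69 in astrocytes. For Mt2 it ranged from -1.19 to 0.43 in choroid plexus cells, -0.42 to 0.73 in ependymal cells and -0.26 to 0.62 in astrocytes. For Mt3 it ranged from -0.13 to 0.84 in astrocytes, -0.85 to -0.054 in ependymal cells and -0.70 to -0.34 in choroid plexus cells. Mt2 in fibroblasts minus EC ranged from -0.42 to 0.25. A group then holds 1 library, which is assumed to vary like the other group.

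The count of listed genes called was 0 with DESeq2, 28 with the replicate block and 4 to 68 without 1 library (68 without CSD 1, 36 without CSD 2, 4 without HC 1). The replicate block called 0 members. The labels do not say whether same-numbered libraries share more than a number. The correlation of their deviations lay between -0.006 and 0.397 over the classes, highest in microglia, with 2 pairs. Over all genes, the block called 193 in capillary EC against 43 without it, and 5 in EC against 7. The count of genes called over all genes in EC, 7, was also moved by CSD 1 (550 without it) and CSD 2 (285). Calls between classes numbered 20, and 15 with free RNA subtracted, where choroid plexus cells had to be left out since Ttr defines them. Thinning sets the shares: 50.9% of EC held Mt1 without it and 46.1% at 1000 UMIs, 99.2% of ependymal cells held Mt1 without it, and 82.9% and 65.3% of choroid plexus cells held Mt3. Fibroblasts numbered 12 to 33 and ependymal cells 13 to 33 in a library.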

Other observations

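Several classes held too few cells in at least 1 library for a test, and their Mt1 levels are given as values. Venous EC, the EC of draining vessels, held Mt1 at 1429 CPM in CSD 1, 3142 in CSD 2, 632 in HC 1 and 222 in HC 2, from 9 to 13 cells and 3 to 36 Mt1 UMIs in a library. Both CSD values lay above both HC values, on few counts. The share of all genes that do so was not computed for venous EC, and it was 20.1% in EC as a whole. Border-associated macrophages, which live along the vessels and meninges, held 695, 714, 612 and 713 CPM, with no such order. They rest on 5 to 31 cells and 10 to 50 Mt1 UMIs in a library. Oligodendrocytes held 828, 1408, 892 and 1050 CPM, and their precursors 484, 590, 286 and 739 CPM. The former rest on 2 to 12 cells and 10 to 93 Mt1 UMIs in a library, the latter on 6 to 22 cells and 4 to 28 UMIs. B cells held 127, 527, 0 and 76.3 CPM from 1 to 32 cells and 0 to 4 UMIs, too few to read an order. Neurons held 0 to 6 Mt1 UMIs in a library, and neutrophils held Mt1 UMIs only in CSD 1 (11).

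Some barcodes passed the cell filters but joined no class, because their leading class had less than 2 times the markers of another. They held Mt1 at 481, 1209, 604 and 536 CPM and Mt3 at 776, 932, 1067 and 1097 CPM in CSD 1, CSD 2, HC 1 and HC 2. Those with fewer than 3 markers of any class, 41 to 118 in a library, held Mt1 at 1076, 2460, 773 and 747 CPM. CSD 2 had the highest Mt1 in both sets.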
